A study of Mus musculus with 36 samples.

Results

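Inflammasomes are cytosolic complexes in which a sensor protein recruits the adaptor ASC and the protease caspase-1, and the 7 genes described here encode their core in the mouse. They are the sensors Nlrp3, Nlrc4 and Aim2, the adaptor gene Pycard (ASC), the protease genes Casp1 and Casp4, and Il18, the cytokine that caspase-1 matures. They were chosen by name, as the probes of the deposited intensity table whose gene name, ignoring case, was a member. This gave 12 of 45281 probes, 3 for Casp4, 2 each for Aim2, Pycard and Il18, and 1 each for Nlrp3, Nlrc4 and Casp1. All 12 probes passed the filter on low signal, and each gene was read by its probe of highest mean level, so that 7 of the 14416 genes tested were members.

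RNA of macrophages was hybridised to 36 Illumina bead arrays, the cells having been raised with the macrophage growth factor M-CSF from bone marrow of C57BL/6 mice, 2 to 5 months of age. The mice either lacked both liver X receptors, the oxysterol sensors LXRa and LXRb (double knockout, dko), or were wild type (wt). Cells took up cholesterol crystals for 3 h or none, were washed, and then received 10 mM cyclodextrin (CD), a ring-shaped sugar that carries cholesterol, for 4 h or none. The 8 groups were dko cells with crystals plus CD, CD alone, crystals alone or neither (4 arrays each), and wt cells with the same 4 treatments (5 arrays each). The labels name no Toll-like receptor ligand in any group and no Cre or cell type that would limit the knockout. Arrays are numbered 6 to 9 in dko and 1 to 5 in wt groups, and what a number stands for (animal, culture, day) is not stated, so p-values measure the spread between arrays, which may in part be technical. The question the comparisons address is how far crystals, CD and the loss of LXR moved these genes.

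As background, NLRP3 is the sensor that responds to cholesterol crystals and other particles that damage lysosomes, NLRC4 answers to bacterial flagellin and secretion needles presented by NAIP proteins, and AIM2 binds DNA in the cytosol. Each works through ASC, which NLRC4 can bypass, to activate caspase-1, and caspase-1 then matures the pro-forms of IL-1β and IL-18 and cleaves gasdermin D, which opens pores in the membrane. The mouse Casp4 gene encodes the protease long known as caspase-11, which binds bacterial lipopolysaccharide in the cytosol and cleaves gasdermin D directly. In macrophages Nlrp3 and Casp4 are known as genes that are switched on by NF-kB or interferon signalling, a step called priming, while Casp1, Pycard and Il18 are thought to be present in resting cells. RNA levels say nothing of whether any of these complexes was assembled.

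Signal and identity were first examined over all genes. Array medians ran from 83.5 to 128 intensity units and 15342 to 17892 probes were detected per array. All 8 macrophage markers passed the filter and 0 of 6 T cell markers did. So did 2 of 5 B cell, 2 of 4 NK cell, 2 of 7 dendritic cell, 2 of 4 epithelial and 1 of 6 erythroid and mast markers. Of 9 neutrophil and granule markers 5 passed, and their summed level was 173 to 969 on dko arrays against 130 to 199 on wt arrays. The summed level of 6 stromal markers was 1993 to 3531 on dko arrays against 570 to 2334 on wt arrays (linear normalized units). The probes of the deleted genes gave no check of the genotype, since Nr1h3 (LXRa) and Nr1h2 (LXRb) differed by 0.29 and 0.47 between untreated dko and wt cells (log2, SE 0.22 and 0.25), and no source used here places them inside or outside the deleted parts. Abcg1, a cholesterol exporter switched on by LXR, stood at 8.89 ± 0.07 in dko cells with crystals against 10.69 ± 0.37 in wt cells with crystals (log2 level, SD, n = 4 and 5), a difference of -1.80 (SE 0.27, limma with Benjamini-Hochberg adjustment, adjusted p = 0.000616). In untreated cells it stood the other way, at 8.71 ± 0.20 in dko and 7.70 ± 0.17 in wt cells (1.01, SE 0.27, adjusted p = 0.107).

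The arrays also fell into 2 sets by Xist, the RNA that coats the inactive X chromosome. Its log2 level was 10.28 to 11.35 on 20 arrays and 4.19 to 4.41 on the other 16, and the labels give no sex. Each dko group held 2 arrays of each kind, and each wt group held 3 with high Xist (numbers 1 to 3) and 2 with low Xist (numbers 4 and 5). In wt the low-Xist arrays also lay on slides that hold dko arrays, while the high-Xist arrays lay on 2 slides of wt only. In dko 0 of 4 numbers kept the same Xist state through the 4 treatments, against 5 of 5 numbers in wt. Several members moved with this split within groups: Aim2 and Casp1 were higher on the low-Xist arrays in 8 of 8 groups, Casp4 in 7 of 8 and Nlrp3 in 6 of 8. Nlrc4 and Il18 were higher there in 3 of 8 groups each and Pycard in 2 of 8. How many of all genes split in this way was not counted. Results that touch these genes are therefore given with both sets apart, a split chosen after the data were seen, and its part in the results was not tested. In bulk RNA, fewer cells of a type and less RNA per cell cannot be told apart.

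Promoter sequence was available from RefSeq for all 7 genes (build GRCm38.p6), and 4 windows of the 250 bases before the annotated start are shown, those of Casp4 and Casp1, which neighbour each other on chromosome 9 and whose levels moved together, of Nlrp3, the sensor of crystals, and of Il18, the member that changed most firmly with crystals. Capitals mark matches to the NF-kB kappaB consensus on either strand, and each sequence runs 5′ to 3′ on the strand of its gene.
Casp4, chr9:5308599-5308848, plus strand: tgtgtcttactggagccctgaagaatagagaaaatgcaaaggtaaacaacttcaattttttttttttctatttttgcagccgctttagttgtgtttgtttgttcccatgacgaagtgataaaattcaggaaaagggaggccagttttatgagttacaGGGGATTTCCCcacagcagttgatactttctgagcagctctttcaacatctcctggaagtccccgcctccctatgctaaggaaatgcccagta
Casp1, chr9:5298267-5298516, plus strand: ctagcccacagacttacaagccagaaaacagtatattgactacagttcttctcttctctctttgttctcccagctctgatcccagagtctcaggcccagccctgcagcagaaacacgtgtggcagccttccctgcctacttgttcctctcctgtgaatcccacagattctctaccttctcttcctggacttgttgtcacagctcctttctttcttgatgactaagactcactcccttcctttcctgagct
Nlrp3, chr11:59541319-59541568, plus strand: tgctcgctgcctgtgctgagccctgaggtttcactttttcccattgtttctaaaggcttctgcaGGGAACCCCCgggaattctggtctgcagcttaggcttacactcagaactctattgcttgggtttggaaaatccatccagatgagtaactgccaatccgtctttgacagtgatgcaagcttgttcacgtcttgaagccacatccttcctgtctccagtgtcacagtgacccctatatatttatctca
Il18, chr9:50554450-50554699, plus strand: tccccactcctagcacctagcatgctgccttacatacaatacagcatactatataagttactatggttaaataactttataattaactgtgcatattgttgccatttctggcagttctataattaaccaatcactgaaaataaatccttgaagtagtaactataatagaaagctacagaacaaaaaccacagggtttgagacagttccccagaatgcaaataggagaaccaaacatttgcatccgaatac
The capitals in the Casp4 window are overlapping matches on both strands that lie 83 to 93 bases before the start, and the match in the Nlrp3 window lies on the minus strand, 177 to 186 bases before it. The kappaB consensus occurs in 3.90% of the 32851 mouse windows of this length. The Casp1 and Il18 windows above, those of Nlrc4, Aim2 and Pycard, and a second Nlrp3 window held no match to it, nor to any of 5 other motifs sought on both strands. The 4 given here are GAAA repeated after NN (interferon response, in 2.98% of windows), TGANTCA (AP-1, 6.75%), AGGTCA repeated after NNNN (LXR, 0.0152%) and TCACNCCAC (sterol response, 1.05%). A match is a string of letters and not a measured binding site.

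Across the 14 comparisons of 2 groups, 10 of 98 member tests passed an adjusted p of 0.05, all of them in 3 genes, Casp4, Il18 and Nlrc4. The share of all genes called ran from 0% (CD in loaded wt cells) to 16.2% (crystals plus CD in wt cells). Of the 10 calls, 3 lie in the latter comparison and 2 in that of crystals without CD in wt cells (14%). Casp4 was higher with CD in dko cells, with or without crystals, and was higher after crystals plus CD than in untreated cells of both genotypes. Il18 was lower after crystals in wt cells, with or without CD, and higher in dko than in wt cells after crystals plus CD. Nlrc4 was lower after crystals in wt cells. Nlrp3, Aim2, Pycard and Casp1 passed in none of the 14 in this fit of group means. However, Nlrp3, Pycard and Casp1 did so under some of the other settings given below. The plot of changes by comparison gives all 98 values.

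**Figure D1:**
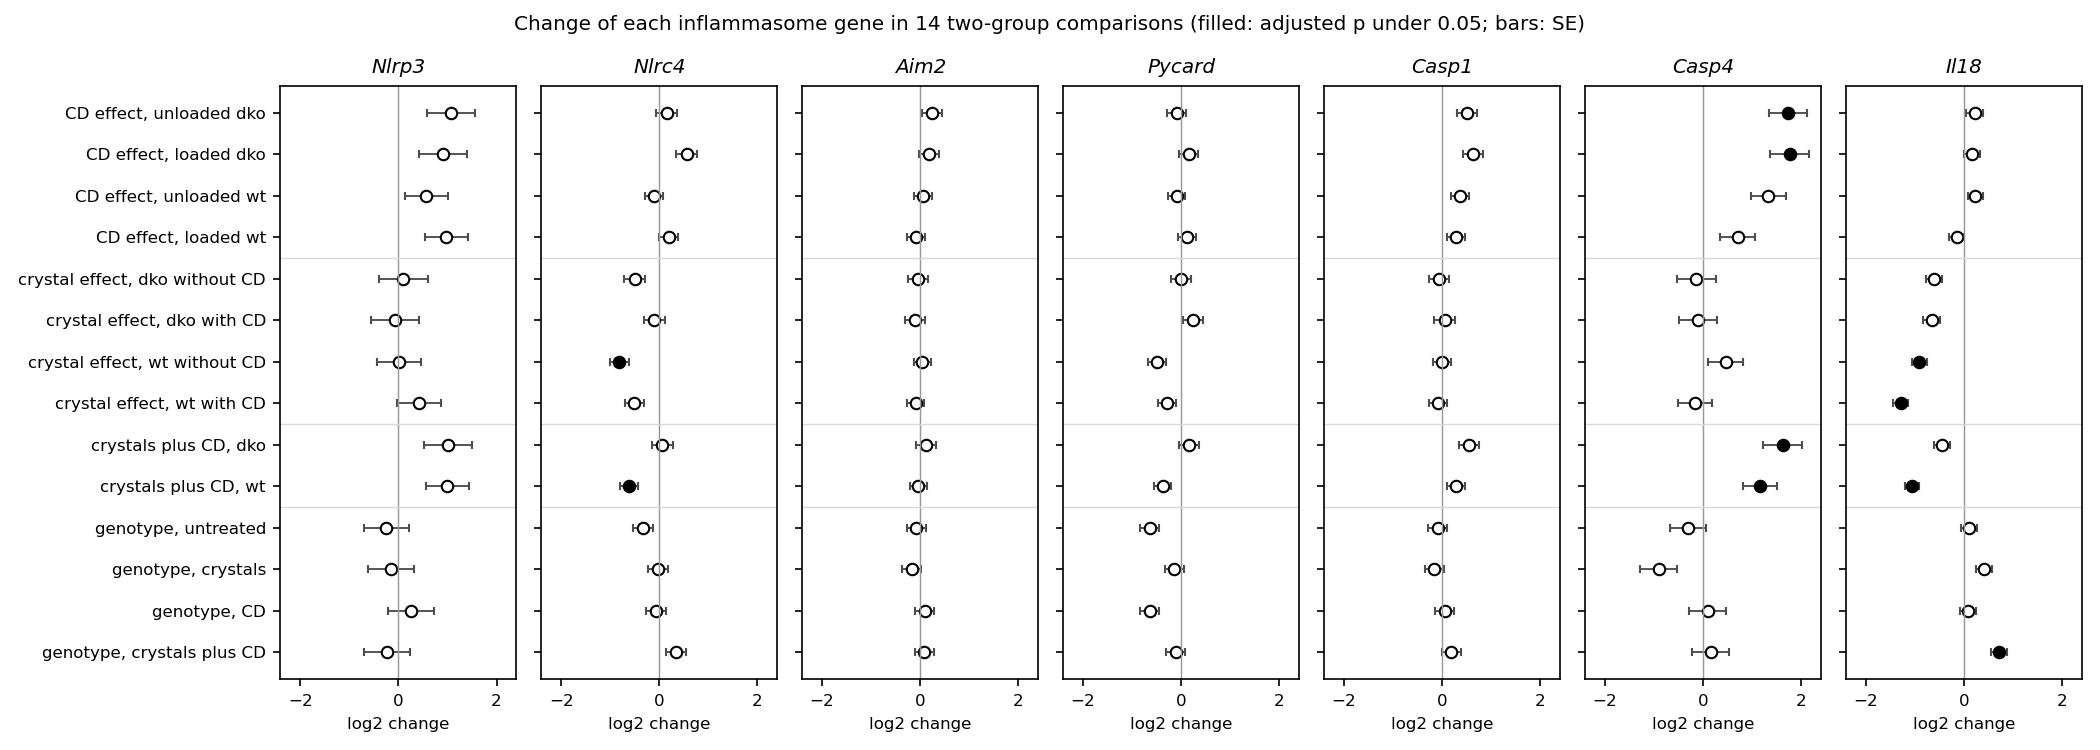
Log2 change of each of the 7 genes (columns) in 14 two-group comparisons (rows), first-named state minus its reference, with SE as bars and filled points for an adjusted p under 0.05. The 10 filled points lie in the Casp4, Il18 and Nlrc4 columns; Casp4 points lie between 0.70 and 1.76 in the 4 CD effects and Il18 points between -1.29 and -0.45 in the 6 comparisons that add crystals. Nlrp3 points rest largely on arrays that did not detect it.

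Of the sensors, Nlrp3 stayed close to the background of the arrays. Its probe was detected on 14 of 36 arrays, 11 of the 18 with CD and 3 of the 18 without CD. In unloaded dko cells it read 4.42, 6.4, 4.44 and 6.41 with CD (log2 level, arrays 6 to 9), against 4.30, 4.5, 4.30 and 4.29 without CD. In crystal-loaded dko cells it read 5.93, 4.62, 6.28 and 4.58 with CD, against 4.43, 4.72, 4.29 and 4.37 without CD. The CD arrays of each dko group thus split into 2 near 6 or above and 2 at the level of the untreated arrays, and the 4 high arrays are the 4 with low Xist.

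Because no untreated dko array detected Nlrp3, that group was set at the lowest detected signal of each of its arrays. Against this floor the mean stood 1.67-fold higher in unloaded dko cells with CD (2 of 4 CD arrays detected). After crystals plus CD it stood 1.60-fold higher (2 of 4 detected). These are not strict lower bounds, since the undetected CD arrays entered at their measured values. Neither difference passed the limma test, which used the measured levels (adjusted p = 0.346 and 0.242). In wt cells Nlrp3 averaged 5.16 ± 0.81 with CD against 4.59 ± 0.16 without CD (SD, n = 5 each), and 5.58 ± 1.2 with crystals plus CD against 4.6 ± 0.31 with crystals alone. A single array, wt crystals plus CD number 3, read 7.60 and held the highest Nlrp3 value of the study, and it is a high-Xist array.

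In unloaded wt cells the arrays read 4.35, 4.45, 5.21, 5.49 and 6.31 with CD (arrays 1 to 5), against 4.65, 4.57, 4.39, 4.82 and 4.51 without CD. In loaded wt cells they read 5.05, 4.55, 7.6, 4.99 and 5.72 with CD, against 4.57, 4.52, 5.10, 4.58 and 4.24 without CD. In each wt group without CD 1 of 5 arrays detected the probe, so that most of these reference values are background. All 8 low-Xist CD arrays detected Nlrp3, against 3 of 10 high-Xist CD arrays. On low-Xist arrays alone limma called Nlrp3 with CD in unloaded dko, loaded dko and unloaded wt cells (adjusted p = 0.000141, 0.00145 and 0.0097). It was also called for crystals plus CD in dko cells (0.000364). Of all 14416 genes 2116, 1688, 1083 and 3026 were called there. Of the low-Xist arrays without CD 2 of 8 detected Nlrp3, so the sizes are not measured differences. Whether the CD effect itself depends on the Xist state was not tested.

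**Figure D2:**
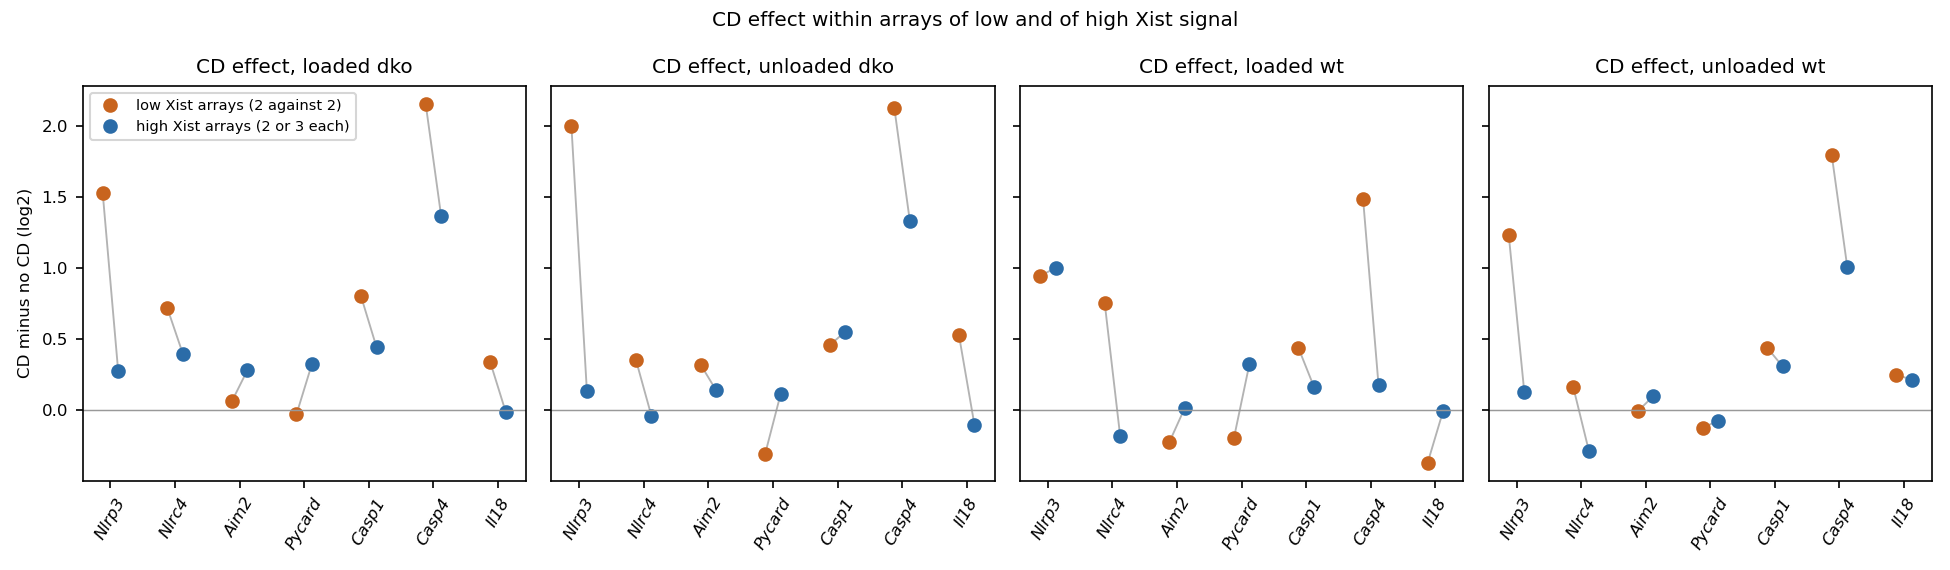
Difference of mean log2 level, CD minus no CD, for each gene within low-Xist arrays (orange, left) and within high-Xist arrays (blue, right), in dko and wt cells with and without crystals. Casp4 in loaded wt cells stands at 1.49 on low-Xist and 0.18 on high-Xist arrays. Nlrp3 points are set against arrays that mostly did not detect it, so their sizes are not measured differences.

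Nlrc4, the sensor of flagellin, fell with crystals in wt cells. It read 6.94, 7.06, 6.4, 6.45 and 5.95 in wt cells with crystals (log2 level, arrays 1 to 5), against 7.82, 7.39, 7.85, 6.80 and 7.01 in untreated wt cells. Every loaded array lay below the untreated mean, although the ranges overlap. The change was -0.81 (SE 0.19, 1.75-fold lower, limma with Benjamini-Hochberg adjustment, adjusted p = 0.00323), and it kept its call with each array left out in turn (adjusted p up to 0.0181). It was not called in replicates 4 and 5 with the dko arrays (-0.70, adjusted p = 0.0887, a set chosen after the data were seen), nor with the deposited log2 values, as scanned (-0.46, adjusted p = 0.688).

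After crystals plus CD, Nlrc4 read 6.96, 6.61, 6.29, 6.98 and 6.93 in wt cells. Against untreated wt cells it fell by 0.62 on the log2 scale (SE 0.19, adjusted p = 0.0229), a difference carried by the 3 high-Xist arrays. On the low-Xist arrays it was 0.06 (adjusted p = 0.89), and within 2 slides it ran from -1.2 to 0.14. The call was lost without wt crystals plus CD number 2 or 3 (adjusted p = 0.0518 and 0.0892) and without untreated wt number 1 or 3 (0.0902 and 0.0975), and with the slide as a block (0.069).

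In dko cells Nlrc4 read 6.45, 6.43, 6.66 and 6.62 with crystals (arrays 6 to 9), against 7.12, 6.93, 6.77 and 7.35 without. The ranges do not overlap, but the difference of -0.50 (SE 0.21) had an adjusted p of 0.492, beside 0.416% of all genes called. It was called with replicates 4 to 9 alone (adjusted p = 0.0483), beside 206 of 14416 genes. With CD added after crystals it read 7.17, 7.0, 7.15 and 7.08, all above the crystal-only arrays, a difference of 0.56 (SE 0.21, adjusted p = 0.209). This difference was called with replicates 4 to 9 alone (adjusted p = 0.0155) and on low-Xist arrays alone (0.72, adjusted p = 0.00826). In these settings 466 and 1688 of 14416 genes were called. The crystal effect on Nlrc4 did not differ between dko and wt cells by the test of that difference (0.31, adjusted p = 1.0), which does not show that the genotypes act alike.

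Aim2, the sensor of DNA, showed no change past the threshold in any comparison. Its level lay between 5.49 and 6.35 on all 36 arrays, and group means ran from 5.73 ± 0.27 in dko cells with crystals to 6.01 ± 0.33 in dko cells with CD (SD, n = 4 each). Within groups the low-Xist arrays were higher by 0.22 to 0.58. The largest of its 14 changes was 0.23 (SE 0.20), with CD in unloaded dko cells. A second, dimmer Aim2 probe was detected on 32 of 36 arrays.

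Pycard, the adaptor gene, was not called in any of the 14 comparisons either, but its ranges did not overlap between genotypes in some. How many of all genes have such ranges was not counted. It read 5.87, 5.86, 6.29 and 6.30 in untreated dko cells, against 6.90, 6.89, 6.96, 6.37 and 6.49 in untreated wt cells, and these ranges do not overlap. The difference of -0.64 (SE 0.19) had an adjusted p of 0.144, beside 0.208% of all genes called in that comparison and 0 of 7 members. It was -0.83 on high-Xist arrays alone (adjusted p = 0.0137) and -0.35 on low-Xist arrays alone (adjusted p = 0.798). On high-Xist arrays alone 1839 of 14416 genes were called between untreated genotypes. The high-Xist arrays of dko and wt share no slide, so genotype and slide cannot be told apart there. With CD alone the values were 6.17, 5.43, 6.24 and 6.11 in dko cells, against 6.73, 6.99, 6.80, 6.27 and 6.34 in wt cells (-0.64, SE 0.19, adjusted p = 0.138). Within slides that held both genotypes (1 array of each), the difference was -0.20 untreated, and -0.10 and -0.24 with CD alone. After crystals it averaged 6.08 ± 0.20 in dko and 6.23 ± 0.27 in wt cells (SD, n = 4 and 5).

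The smaller gap after crystals came with lower wt values. Pycard read 6.29, 6.47, 5.77, 6.27 and 6.33 in wt cells with crystals, and its change against untreated wt cells was -0.49 (SE 0.18, adjusted p = 0.0647), while in dko cells it was 0.00 (SE 0.20). The test of the difference between these changes gave 0.50 (SE 0.27, unadjusted p = 0.0759, adjusted p = 1.0). The crystal change in wt passed the test without untreated wt number 4 (adjusted p = 0.0349), with no background correction (-0.26, 0.0473), with probes averaged (-0.39, 0.0243) and with the Xist state as a block (0.0262). It was -0.74 on high-Xist arrays (adjusted p = 0.00909) and -0.13 on low-Xist arrays (adjusted p = 0.902). The second Pycard probe, detected on 11 of 36 arrays, gave -0.21 for dko against wt untreated cells and -0.30 for crystals in wt.

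Casp1, the protease at the centre of the complex, was detected on all 36 arrays and passed no comparison with CD. In unloaded dko cells it read 11.79, 12.21, 12 and 12.55 with CD (log2 level), against 11.27, 12, 11.84 and 11.42 without CD. In loaded dko cells it read 12.48, 11.71, 12.68 and 11.88 with CD, against 11.75, 11.80, 11.25 and 11.44 without CD. All 4 CD arrays lay above the mean of their reference in each case, but the ranges overlap.

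These Casp1 differences were 0.51 (SE 0.21, adjusted p = 0.258) in unloaded and 0.62 (SE 0.21, adjusted p = 0.125) in loaded dko cells, neither of them called. With the Xist state as a block, chosen after the data were seen, their sizes were the same and they were called (adjusted p = 0.0169 and 0.00339), as was crystals plus CD in dko cells (0.55, adjusted p = 0.00314). Leaving out dko crystals plus CD number 7 also gave a call for CD in loaded dko cells (0.78, adjusted p = 0.0369), as did the slide as a block (0.69, adjusted p = 0.0495) and median scaling (0.75, adjusted p = 0.0455). In wt cells the differences with CD were 0.36 (SE 0.18) without and 0.27 (SE 0.18) with crystals, with adjusted p = 0.599 and 0.848. Crystals alone changed Casp1 by -0.07 (SE 0.21) in dko and by 0.00 (SE 0.18) in wt cells.

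Casp4, which encodes the caspase that detects lipopolysaccharide, rose with CD in dko cells. In unloaded dko cells it read 9.16, 10.71, 9.08 and 10.63 with CD (log2 level), against 7.73, 8.40, 8.67 and 7.84 without CD. In loaded dko cells it read 10.56, 8.87, 10.55 and 9.15 with CD, against 8.35, 8.45, 7.52 and 7.77 without CD. All 4 CD arrays of each group lay above all 4 arrays without CD. The rise was 1.73 (SE 0.39, 3.32-fold, adjusted p = 0.0166) in unloaded and 1.76 (SE 0.39, 3.39-fold, adjusted p = 0.0179) in loaded dko cells, by limma with Benjamini-Hochberg adjustment. It was the 1 member of 7 called in each, beside 1.73% and 1.81% of all genes called. The median change of the 7 members was 0.23 and 0.56, against -0.03 and -0.02 for all genes.

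These calls rest on few arrays. Without dko CD number 7 or 9 the first lost its call (1.46 and 1.49, adjusted p = 0.115 and 0.12), as it did without untreated dko number 6 or 9 (0.0663 and 0.0515). The second lost its call without dko crystals plus CD number 6 or 8 (1.5 and 1.51, adjusted p = 0.104 and 0.128) or dko crystals number 8 or 9 (0.0624 and 0.0508). The CD arrays named here are the 4 with low Xist, which read 10.55 to 10.71, while the other 4 dko CD arrays read 8.87 to 9.16. Within low-Xist arrays the rise was 2.13 in unloaded and 2.16 in loaded dko cells, and within high-Xist arrays 1.33 and 1.37, so that it was present in both sets. Within slides it was positive in 2 of 2 and 3 of 3. With the deposited log2 values, which carry no background correction or normalization, the sizes were 1.61 and 1.46 and neither was called (adjusted p = 0.209 and 0.643).

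In wt cells Casp4 read 9.34, 9.09, 9.51, 10.46 and 10.59 with CD, against 8.35, 8.23, 8.33, 8.63 and 8.83 without CD. All 5 CD arrays lay above all 5 untreated arrays, and the difference of 1.33 (SE 0.35, 2.51-fold) had an adjusted p of 0.0619, beside 0.881% of all genes called and 0 of 7 members (1 at an unadjusted p under 0.05). It was called without wt CD number 2 (1.5, adjusted p = 0.0287), with the Xist state as a block (adjusted p = 0.000189), and within each Xist set (1.80 on low-Xist and 1.01 on high-Xist arrays). In loaded wt cells Casp4 read 9.27, 9.12, 9.22, 10.12 and 10.42 with CD, against 9.15, 9.01, 8.92, 8.73 and 8.83 without CD. This difference of 0.70 (SE 0.35, adjusted p = 0.703) came from a comparison in which limma called 0% of all genes and 0 of 7 members (1 at an unadjusted p under 0.05, Nlrp3), and it was 1.49 on low-Xist but 0.18 on high-Xist arrays.

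The CD effect on Casp4 was 0.40 larger in dko than in wt without crystals and 1.06 larger with crystals (SE 0.53 each), and neither difference passed the test (unadjusted p = 0.0525 for the second, adjusted p = 1.0). Against untreated cells, crystals plus CD raised Casp4 by 1.62 in dko (SE 0.39, adjusted p = 0.008) and by 1.16 in wt cells (SE 0.35, adjusted p = 0.0203). The dko call was lost without dko crystals plus CD number 6 or 8 (adjusted p = 0.0535 and 0.057). The wt call was lost without wt crystals plus CD number 4 or 5 (0.0606 and 0.0797) or untreated wt number 2 (0.0513), with the slide as a block (0.0501) and with the probes of a gene averaged (0.67, adjusted p = 0.0635). With the deposited log2 values neither was called (1.46 and 1.09, adjusted p = 0.197 and 0.245). Of the 7 members 1 was called in dko, beside 8.12% of all genes, and 3 in wt, beside 16.2%.

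Crystals alone left Casp4 at 8.02 ± 0.45 in dko cells and 8.93 ± 0.16 in wt cells (SD, n = 4 and 5). The highest dko value, 8.45, lay below the lowest wt value, 8.73, and the difference of -0.91 (SE 0.37) had an adjusted p of 0.264, beside 0.375% of all genes called. It was called with the Xist state as a block (-0.99, adjusted p = 0.0176) and was -1.38 on high-Xist arrays alone (adjusted p = 7.74e-06), but -0.38 on low-Xist arrays alone (adjusted p = 0.402). On high-Xist arrays alone 2025 of 14416 genes were called in this comparison. The genotypes share no slide there, so genotype and slide cannot be told apart. On the 1 slide with crystal arrays of both genotypes the Casp4 difference was -0.80 (2 dko arrays and 1 wt array). In wt the change with crystals was 0.46 (SE 0.35, adjusted p = 0.492), with all 5 loaded arrays above the untreated mean, and in dko it was -0.14 (SE 0.39). The wt change was 0.72 on high-Xist arrays (adjusted p = 0.000552) and 0.05 on low-Xist arrays (adjusted p = 0.942). The second Casp4 probe, detected on all 36 arrays, differed in the same direction as the used one, by 1.38 and 1.33 with CD in unloaded and loaded dko cells (adjusted p = 0.0793 and 0.0906 over all probes). The third, detected on 30 arrays at a mean log2 level of 4.99, gave 0.32 and 0.62.

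**Figure D3:**
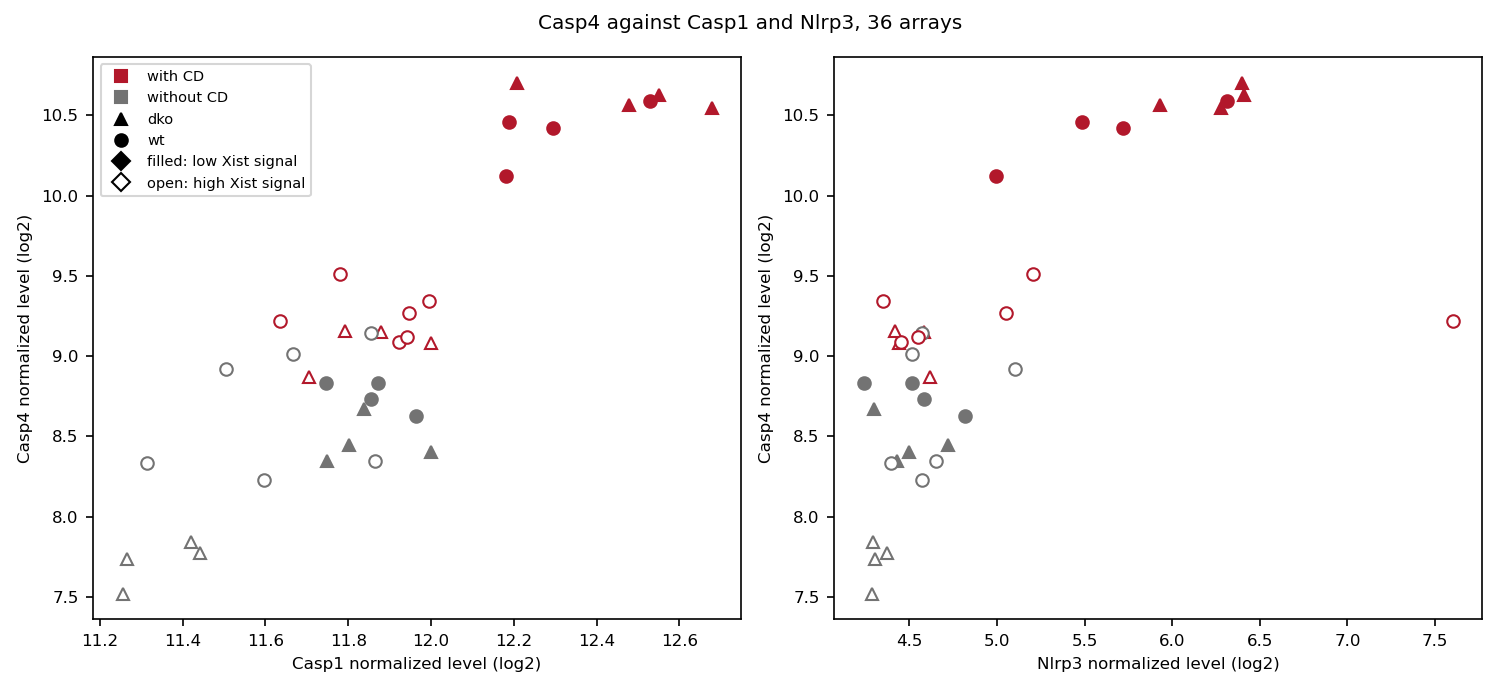
Normalized log2 level of Casp4 (vertical axis) against that of Casp1 (left) and Nlrp3 (right) on each of the 36 arrays, red with CD and grey without, triangles dko and circles wt, filled for low and open for high Xist signal. The 8 arrays with CD and low Xist hold the highest Casp4 values, 10.12 to 10.71, and the other 28 lie at 9.51 or below; wt crystals plus CD number 3 stands apart in Nlrp3 at 7.60.

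Casp1 and Casp4 varied together from array to array. Over the 36 arrays their Pearson r was 0.88, and it was 0.83 after the group means were removed, the arrays sharing treatment, slide and Xist state. Casp4 and Nlrp3 gave 0.72 and 0.61. The genes most like Casp4 among all tested were Mtdh, Icam1, an adhesion molecule of inflamed cells, and Fas, a death receptor (r = 0.95, 0.94 and 0.94). The genes most like Casp1 were Tshz1 (0.92), Casp4 (0.88) and Ccl3, a chemokine (0.87), and the gene most like Nlrp3 was Ralgds (0.87). Aim2 had Eif2s3y, a gene of the Y chromosome, among its 3 most alike (0.74). For Nlrc4 the closest was Gmfg (0.87) and for Pycard it was Hap1 (0.77). For Il18 they were Cysltr1, a leukotriene receptor, and Stard4, a sterol carrier (both 0.86), and with group means removed the values were 0.49 and -0.06.

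Il18, the cytokine gene, fell with crystals in wt cells. It read 6.03, 5.97, 5.58, 5.83 and 6.26 in wt cells with crystals (log2 level), against 7.14, 6.87, 6.82, 6.47 and 6.93 in untreated wt cells. With CD it read 6.04, 5.97, 5.56, 5.23 and 6.12 after crystals, against 7.25, 7.21, 7.01, 6.79 and 7.12 without crystals. The 10 wt arrays with crystals, 5.23 to 6.26, all lay below the 10 without, 6.47 to 7.25. The change was -0.91 without CD (SE 0.15, 1.88-fold lower, limma adjusted p = 6.7e-05) and -1.29 with CD (SE 0.15, 2.45-fold lower, adjusted p = 4.37e-07). Crystals plus CD against untreated wt cells gave -1.06 (SE 0.15, adjusted p = 9.05e-06).

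These 3 calls remained without any single array (adjusted p at most 0.000544). On low-Xist arrays alone the change without CD was -0.66 and was not called (adjusted p = 0.215). With the deposited log2 values the changes were -0.47, -0.49 and -0.45 and none was called (adjusted p = 0.413, 0.441 and 0.431). Members called with crystals in wt were 2 of 7 without CD, beside 14% of all genes, and 1 of 7 with CD, beside 7.6%. The second Il18 probe was detected on 7 of 36 arrays and gave 0.08 and -0.04 with crystals in wt cells, without and with CD.

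In dko cells Il18 read 6.22, 6.18, 6.61 and 6.33 with crystals, against 7.02, 6.96, 6.78 and 7.04 in untreated cells. With CD it read 6.68, 6.35, 6.4 and 6.56 after crystals, against 6.94, 7.34, 6.90 and 7.46 without crystals. The 8 dko arrays with crystals, 6.18 to 6.68, lay below the 8 without, 6.78 to 7.46. The differences of -0.62 (SE 0.17, adjusted p = 0.108) and -0.66 (SE 0.17, adjusted p = 0.0761) did not pass the test, in comparisons with 0.416% and 0.472% of all genes called. The second passed with no background correction (-0.39, adjusted p = 0.0198). In both, limma called 0 of 7 members (2 and 1 at an unadjusted p under 0.05). The crystal effect differed between dko and wt by 0.30 without CD (adjusted p = 1.0).

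After crystals plus CD, Il18 averaged 6.50 ± 0.15 in dko and 5.78 ± 0.38 in wt cells (SD, n = 4 and 5), and all 4 dko arrays lay above all 5 wt arrays. The difference of 0.71 (SE 0.16, 1.64-fold, adjusted p = 0.0307) was the 1 member call of 7, beside 0.458% of all genes. It lost its call without 5 of the 9 arrays of the comparison, dko crystals plus CD numbers 6, 8 and 9 and wt crystals plus CD numbers 3 and 4 (adjusted p = 0.0898, 0.0624, 0.122, 0.119 and 0.0822). It was -0.018 with the deposited log2 values. Camp was also higher in dko cells here (0.68, adjusted p = 0.0474) and Mertk lower (-1.38, adjusted p = 0.0338). No other macrophage or neutrophil marker was called in this comparison. The median summed level of the 8 macrophage markers after crystals plus CD was 49543 in dko against 51156 in wt cells (linear normalized units). The neutrophil and stromal sums are given above. The part of these markers in the Il18 difference was not tested. After crystals alone Il18 read 6.33 ± 0.19 in dko and 5.93 ± 0.25 in wt cells, a difference of 0.40 (SE 0.16, adjusted p = 0.256). Untreated cells differed by 0.10 (SE 0.16) and cells with CD alone by 0.09 (SE 0.16, 0 of 7 members called beside 0.368% of all genes).

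**Figure D4:**
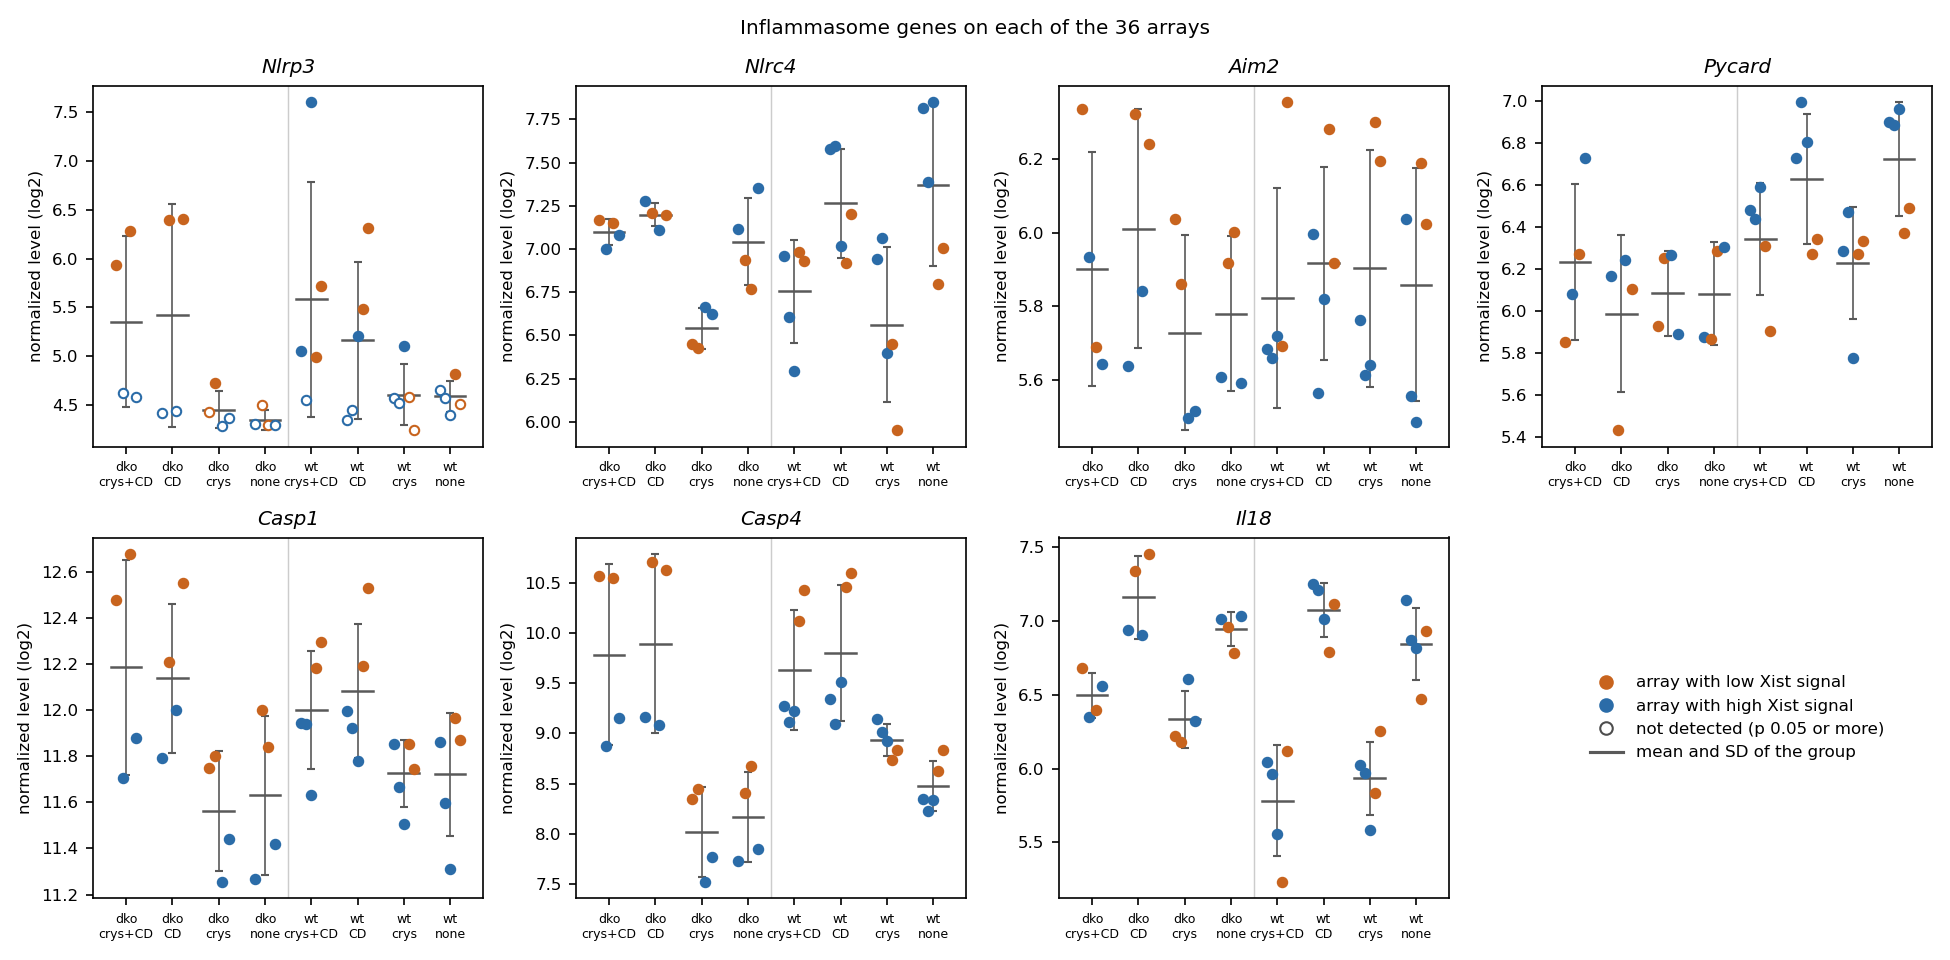
Normalized log2 level of each gene on each array, in 8 groups from dko with crystals plus CD (left) to untreated wt (right), orange for low and blue for high Xist signal, open where the probe was not detected, with group mean and SD in grey. Casp4 and Casp1 are higher in the CD groups, with the low-Xist arrays on top; Il18 is lower in every group with crystals; open points, with 14 of 36 arrays detected, occur for Nlrp3 only.

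The order of group levels followed CD for the caspases and crystals for Il18. For Casp4 the 4 CD groups came first, at 9.63 to 9.89, then wt with crystals, untreated wt, untreated dko and dko with crystals (8.93, 8.47, 8.16 and 8.02). For Casp1 the 4 CD groups also came first, at 12 to 12.19. For Il18 the 4 groups without crystals came first, at 6.85 to 7.16. The arrays of each group overlapped those of its next neighbour in the order in all 7 genes, so that no step fully separated the arrays of neighbours. Some steps were still larger than the SD of either group. For Casp4 the step from wt with crystals plus CD to wt with crystals was 0.70 (SD 0.60 and 0.16).

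**Figure D5:**
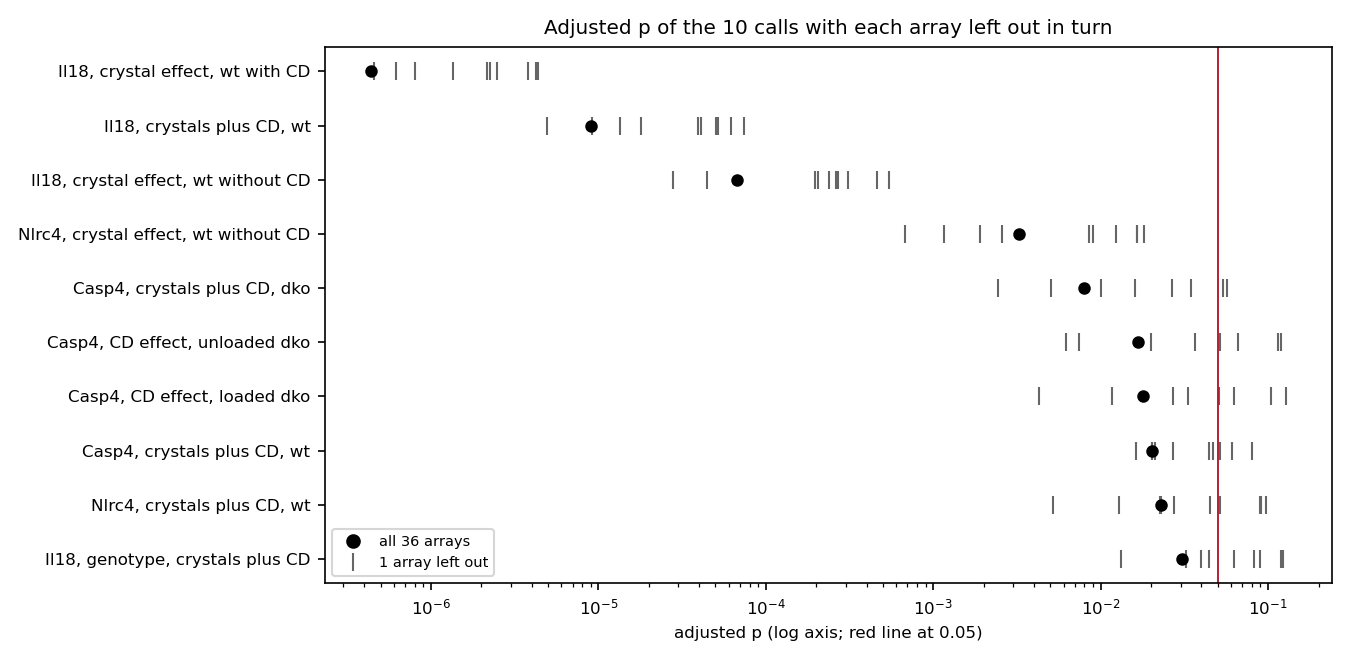
Adjusted p (log axis) of each of the 10 called results with all 36 arrays (black point) and with each array of its groups left out in turn (ticks); the red line marks 0.05. The 3 Il18 crystal results in wt and the Nlrc4 crystal result stay left of the line, and the other 6 cross it.

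The wider pathway was described by 6 lists of 70 genes, of which 55 were tested. The lists were chosen with earlier results of these data known, so their counts are description and not independent support. With CD in dko cells 10 of the 55 rose and 0 fell without crystals, and 11 rose and 0 fell with crystals, beside 1.73% and 1.81% of all genes. The median change of the 55 was 0.40 and 0.48. In the same comparisons the macrophage marker Mertk fell by 1.38 and 1.44 (adjusted p = 0.0248 and 0.0213). The neutrophil granule marker Camp rose by 0.94 with crystals (adjusted p = 0.00399). No other macrophage or neutrophil marker was called there. The median summed level of the 8 macrophage markers was 54825 with CD against 51716 without in unloaded dko cells. In loaded dko cells it was 49543 against 48999 (linear normalized units). The part of Mertk and Camp in these changes, or in that of Casp4, was not tested. Among the activators Gbp2 and Gbp3, interferon-induced GTPases that break open pathogen vacuoles for caspase-11, rose by 2.81 and 2.22 without and by 3.06 and 2.35 with crystals (SE 0.54 and 0.46; adjusted p = 0.00457 and 0.00693, then 0.00317 and 0.00628). The priming readouts Tnf, an NF-kB target, and Rsad2, an antiviral interferon target, rose by 3.46 and 3.04 without crystals (adjusted p = 0.0308 and 0.0018). Among transcription factors Relb rose in both (1.23 and 1.39), and Irf1 and Nfkb1 rose in loaded dko cells (1.75 and 1.0).

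In wt cells with CD alone 2 of the 55 rose, Mvp, a vault protein, and Relb (0.46 and 1.14, adjusted p = 0.0234 and 0.00489), and 0 fell, beside 0.881% of all genes. Tnf in unloaded wt cells read 10.65 ± 1.80 with CD against 7.69 ± 0.36 without CD (SD, n = 5 each). Gbp2 read 9.15 ± 0.95 against 7.74 ± 0.63 there, and neither was called. The Tnf values also spread widely in unloaded dko cells with CD (SD 1.92, n = 4). For the genotype difference in the CD effect limma called 0 of the 55, beside 0% of all genes. In loaded wt cells it called none of the 55 with CD, beside 0% of all genes. Gsdmd and Il1b were not called in any of the 14 comparisons. Gsdmd, the pore-forming target of both caspases, read 10.09 ± 0.15 with CD against 9.96 ± 0.19 without CD in unloaded dko cells (SD, n = 4 each). Il1b, the other cytokine that caspase-1 matures, read 10.01 ± 2.86 against 6.85 ± 0.61 there, a difference of 3.16 (SE 1.29, adjusted p = 0.259) with a wide spread among CD arrays.

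With crystals in wt cells 4 of the 55 rose and 7 fell, beside 14% of all genes. Il1rn, which encodes the natural antagonist of the IL-1 receptor, rose by 2.44 (SE 0.29, adjusted p = 6.27e-07), Sqstm1, an autophagy receptor, by 1.28 and Ninj1, which ruptures the membrane of dying cells, by 0.84. Txnip, a binding partner of NLRP3, fell by 1.31, Sting1, the adaptor of cytosolic DNA sensing, by 1.03, Gsdme by 0.91, Casp8 by 0.74 and Irf2, a transcription factor of the gasdermin D gene, by 0.65 (adjusted p from 0.000268 to 0.0182). With CD present 5 rose and 0 fell with crystals in wt cells, beside 7.6% of all genes. In dko cells crystals moved 0 of the 55 past the test, beside 0.416% of all genes without CD and 0.472% with CD.

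Against untreated cells, crystals plus CD raised 20 and lowered 2 of the 55 in dko cells, beside 8.12% of all genes called. In wt cells the same treatment raised 13 and lowered 5, beside 16.2%. Genotype itself moved few: Ifit3 was lower in untreated dko than wt cells (-2.04, adjusted p = 0.0183), and Nlrc5 and Rsad2 were lower in dko than wt cells after crystals (-0.70 and -2.03, adjusted p = 0.0358 and 0.0408). The share of all genes called was 0.208% untreated and 0.375% after crystals. None of the 55 was called between genotypes with CD alone or with crystals plus CD, beside 0.368% and 0.458% of all genes. Of the 35 tests of a difference between effects over the 7 members (5 comparisons), limma called 0, and 0 had an unadjusted p under 0.05. Among all genes it called 0.0416% for the genotype difference in the crystal effect, 0.0694% for crystals by CD in wt cells, and 0% in the other 3.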

How the data were processed

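RNA was extracted with TRIzol and labelled as biotin cRNA, per the labels' protocols, and the submitters' processing notes name Partek without a version or a role. The authors deposited an intensity and a detection p-value per probe and array for 45281 probes, not normalized. Per the file headers, the deposited series table holds the log2 of the same intensity, and it was used as an alternative. Background correction and quantile normalization (limma 3.58.1 in R 4.3.3, neqc with the detection p-values, offset 16, log2 scale) were followed by a filter that kept 21126 probes with a detection p under 0.05 on at least 4 arrays. Each gene was read by its probe of highest mean level (14416 genes). Symbols were updated through RefSeq, by symbol for 27744 probes and by synonym for 7997, and the other 9540 kept the file's name. Group means over all 36 arrays were fitted with lmFit and eBayes, and p-values were adjusted by Benjamini-Hochberg within each comparison, with a threshold of 0.05. Every adjusted p in the text is from limma. The limma test was tested on simulated data.

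All 7 members were named throughout, and pathway genes were named where they were called, plus up to 4 others given by their level (Il1b and Gsdmd). Some called pathway genes are counted but not reported here by name. The members and lists were chosen with earlier results of these data known. Alternatives were a replicate block, a slide block, median scaling, the deposited log2 values, no background correction, no filter, averaged probes and leaving out each array. A block or split by Xist signal (cut at a log2 level of 7) and replicates 4 to 9 alone were added after the data were seen. The number of arrays limits the precision. Levels of different probes are not compared as amounts. Ranges of arrays that do not overlap are given as description, since the share of all genes with such ranges was not counted.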

Additional observations from a re-analysis of the deposited data

Results flagged for a closer look

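Of 56 sets of arrays (7 genes in 8 groups), 4 held an array far from the others by Dixon's test, a rate near the 1 in 20 that chance gives. Nlrp3 read 4.5 on untreated dko number 7, above the other 3 arrays, and it was not detected there. Aim2 read 6.35 on wt crystals plus CD number 5, which is a low-Xist array. Pycard read 5.43 on dko CD number 7, below the other 3, and 5.77 on wt crystals number 3, below the other 4. In the fit of group means Nlrp3, Aim2 and Pycard had no called result.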

How the results depend on the processing

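Apart from leaving out arrays, 11 alternatives gave 363 values for 33 pairs of gene and comparison. Of these 298 kept direction and call, 37 gained a call, 23 lost one and 5 turned direction. The causes were not tested. The turned values were Nlrc4 with CD in loaded wt cells, -0.18 on Xist-high arrays against 0.19 in all, Nlrc4 after crystals plus CD in wt, 0.056 on Xist-low arrays and 0.056 with replicates 4 to 9 against -0.62, and Il18 between genotypes with the deposited log2 values, -0.025 after crystals and -0.018 after crystals plus CD, against 0.40 and 0.71.

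Counts of members called moved as follows. With the deposited log2 values 0 were called anywhere, against 1, 1, 2, 1, 1, 3 and 1 for CD in unloaded dko, CD in loaded dko, crystals in wt without and with CD, crystals plus CD in dko and wt, and genotype after crystals plus CD. Of all 14416 genes these values called 0, 0, 129, 79, 44, 136 and 2 in that order. The fit of group means called 250, 261, 2018, 1096, 1171, 2337 and 66. For genotype after crystals plus CD the count of members was also 0 with the slide block, median scaling, no background correction, no filter, averaged probes, replicates 4 to 9 and Xist-low arrays. Those settings called 113, 25, 71, 50 (of 28913), 60, 62 and 293 of all genes there. The slide block gave 2 for CD in loaded dko and 1 for crystals plus CD in wt (357 and 1727 of all genes). Median scaling gave 2 for CD in loaded dko and 1 for CD in unloaded wt (182 and 114 of all genes). No background correction gave 1 for crystals in dko with CD (84 of all genes). Replicates 4 to 9 gave 2 for CD in loaded dko, 1 for crystals in dko, 0 for crystals in wt and 1 for crystals plus CD in wt. Of all genes 466, 206, 80 and 638 were called there. The Xist block gave 2 each for CD in unloaded and loaded dko and crystals plus CD in dko, and 1 each for CD in unloaded wt and genotype after crystals. Of all genes it called 580, 597, 1736, 320 and 201 in that order. Xist-high arrays gave 1 for CD in unloaded wt, 4 and 2 for crystals in wt without and with CD, 2 each for genotype untreated and after crystals, and 1 for genotype by crystals. Of all genes they called 96, 2785, 1754, 1839, 2025 and 171 there. The fit of group means called 127, 2018, 1096, 30, 54 and 6. The Xist-high arrays of the 2 genotypes share no slide, so genotype and slide cannot be told apart in them. Xist-low arrays gave 2, 4, 2 and 2 for CD in unloaded dko, loaded dko, unloaded wt and loaded wt, 1 for crystals in wt and 3 for crystals plus CD in dko, with Nlrp3, whose arrays without CD mostly did not detect it, among those of unloaded and loaded dko, unloaded wt and crystals plus CD in dko. Of all genes they called 2116, 1688, 1083, 778, 533 and 3026 there. The fit of group means called 250, 261, 127, 0, 2018 and 1171.

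The labels repeat replicate numbers across groups. Same-numbered arrays deviated together in wt (median r 0.535, over 0.1 in 27 of 30 pairs; 17 of 20 arrays correlated best with their own number) but not in dko (-0.397, 10 of 24; 3 of 16), so the numbers were not taken to pair the arrays. The replicate block gave 1 call each for crystals in dko without and with CD and 2 for crystals plus CD in dko, each with Il18 gained (adjusted p = 0.0149, 0.00739 and 0.0242). It gave 3 for crystals in wt against 2, with Pycard gained (adjusted p = 0.0294), and lost no call. Of all 14416 genes it called 140, 92, 1584 and 2460 in these comparisons. The fit of group means called 60, 68, 1171 and 2018.

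With single arrays left out, 26 of 305 values changed call. Counts ran from 0 to 1 for CD in unloaded dko, CD in unloaded wt and genotype after crystals plus CD, 0 to 2 for CD in loaded dko and crystals plus CD in dko, and 2 to 3 for crystals in wt and crystals plus CD in wt. Probes near background, such as Nlrp3, limit what can be detected.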
